A study of Mus musculus with 16 samples.

Results

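Non-collagen proteins of the extracellular matrix and the enzymes that process collagen were followed in 3T3-L1, a mouse line of fat cell precursors grown in culture. The set held 39 genes chosen by name, and every array probe whose annotation named exactly 1 of them was used. Probes were found for 38 of the 39 genes, out of 19640 genes named by the 38467 probes of the array. Fbn1, which encodes fibrillin-1, had no such probe and was not analysed here. The 38 genes had 62 probes, 24 genes with 1 probe and 14 with several, up to 6 for Tnc.

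The treatment was dexamethasone (dex), a synthetic steroid that activates the glucocorticoid receptor, or the vehicle DMSO alone, and RNA was taken after 2 h or after 36 h. Each of the 4 groups, DMSO 2 h, dex 2 h, DMSO 36 h and dex 36 h, had 4 biological replicates on 4 arrays, 16 arrays in all. Each array compared a sample, labelled with Cy5, with pooled RNA of the samples, labelled with Cy3. The labels named the same line in all groups. The dex concentration, the passage and the density of the cultures were not stated in the labels, so whether these were alike in all groups is not known. All samples came from a single clonal line, and what was shared between replicate cultures is not stated, so p-values measure the spread between these samples.

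The matrix around fibroblastic cells is a network of collagen fibrils, elastic fibres and adhesive glycoproteins, set against a thinner basement membrane sheet that surrounds mature fat cells. Collagen chains are hydroxylated on proline and lysine and folded in the endoplasmic reticulum, trimmed outside the cell, and crosslinked by lysyl oxidases, while small leucine-rich proteoglycans bind the fibrils and set their thickness. During adipocyte differentiation in culture the fibroblastic matrix rich in fibronectin is known to give way to one rich in basement membrane components, and a glucocorticoid is a standard part of the induction mixture. The comparison asked which of these genes responded to dex within hours and after more than a day.

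Values are log ratios of a sample over the pool, taken as log2, although no source used here states the base. A value of 0 is the level of the pool, and a difference between groups of 1 is then a 2-fold difference. A ratio to a pool gives no absolute level, so levels are not compared between genes and no gene can be called absent. Linear models (limma) were fitted to all 16 arrays, and a gene is said to have risen or fallen where at least 1 of its probes had an adjusted p under 0.05 (Benjamini-Hochberg over 38467 probes) in that direction and none in the other. The value quoted for a gene comes from the probe with the smallest p over both dex comparisons together. Errors of group means are SD over 4 arrays, and errors of differences are the SE of the fitted contrast.

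The dex target Fkbp5, a chaperone gene induced by glucocorticoids, was 2.36 ± 0.12 higher on the log2 scale in dex at 2 h and 3.11 ± 0.12 higher at 36 h (SE, n = 4 per group). Tsc22d3, the glucocorticoid-induced leucine zipper, was higher by 2.76 and 2.43 on its quoted probe, and its other 3 probes gave 1.11 and 1.01, 0.87 and 0.97, and -0.068 and 0.45. Per1, a clock gene induced by glucocorticoids, was higher by 1.06 at 2 h, and its 0.48 at 36 h did not pass (adjusted p = 0.0856). Array medians lay between -0.011 and 0.0083. The spread of arrays around their group mean was wider at 2 h, where the SD over probes was 0.168 to 0.435, than at 36 h, where it was 0.108 to 0.205. DMSO 2 h replicate 4 had a mean correlation over probes of -0.104 with the rest of its group. In dex 36 h, replicates 1 and 3 resembled each other (r = 0.794 across probes) more than replicates 2 and 3 did (r = 0.16). Replicate 4 had r of 0.473 with replicate 1, 0.428 with replicate 2 and 0.409 with replicate 3, so replicates 2 and 4 did not stand out as a pair. For 22 of the 38 matrix genes replicates 1 and 3 did not overlap replicates 2 and 4, lying above them for 11 and below them for 11. This split was not counted over all genes, so it is not shown to be particular to the matrix genes. Each fitted error pools all 4 groups. For the quoted probes of the 38 genes the median SD was 0.135 in DMSO 2 h, 0.106 in dex 2 h, 0.088 in DMSO 36 h and 0.175 in dex 36 h.

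At 2 h no matrix gene passed the test in either direction. In limma 0 of 38 rose and 0 fell, beside 1.97 and 1.21 percent of all genes. At an unadjusted p under 0.05, 5 of 38 were higher and 3 lower, beside 1535 and 1322 of all 19640 genes. The higher ones were Plod2, a lysyl hydroxylase, at 0.50 ± 0.15, Loxl3, a lysyl oxidase, at 0.48 ± 0.16, P4ha2, a prolyl hydroxylase subunit, at 0.32 ± 0.099, Lamc1, the laminin gamma-1 chain, at 0.27 ± 0.074, and Postn through its other probe at 0.51 ± 0.14. On the quoted Plod2 probe DMSO 2 h replicate 1 read -0.80, with the other DMSO 2 h arrays between -0.15 and -0.019. The second Plod2 probe read -0.45 to 0.71 in DMSO and 0.058 to 0.24 in dex at 2 h, so the groups overlapped. The lower ones were Thbs1 at -0.30 ± 0.098, Emilin1 at -0.27 ± 0.12 and Tnc at -0.25 ± 0.080. The nearest to passing was Lamc1, whose adjusted p was 0.0856. The median change over the 38 genes was -0.030, and that over all genes was -0.012. All dex arrays lay above all DMSO arrays for the quoted probe of 4 genes and below them for 2, beside 3.08 and 2.8 percent of all probes. A change at 2 h is therefore not shown here.

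At 36 h the set had moved, mostly downwards. Of the 38 genes 17 fell and 6 rose, beside 4.83 percent of all genes that fell and 6.75 percent that rose. The 17 that fell were Tnc, Postn, Thbs1, Thbs2, Fn1, Mfap4, Fbln1, Fbln2, Emilin1, Eln, Lum, Fmod, Dcn, Ogn, Nid2, Loxl1 and Serpinh1. The 6 that rose were Plod1, Nid1, Fbn2, Loxl4, P4ha2 and Lamc1. The median change was -0.25 on the log2 scale over the 38 genes and -0.0012 over all genes, and 30 of the 38 quoted values were below 0. In RNA from whole cultures, fewer cells of a kind and less RNA per cell cannot be told apart. For 19 quoted probes every dex array lay below every DMSO array and for 5 every dex array lay above, beside 13.8 and 13 percent of all probes. The changes of the 17 genes that fell ranged from -0.28 to -1.62, and those of the 6 that rose from 0.36 to 0.86.

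**Figure D1:**
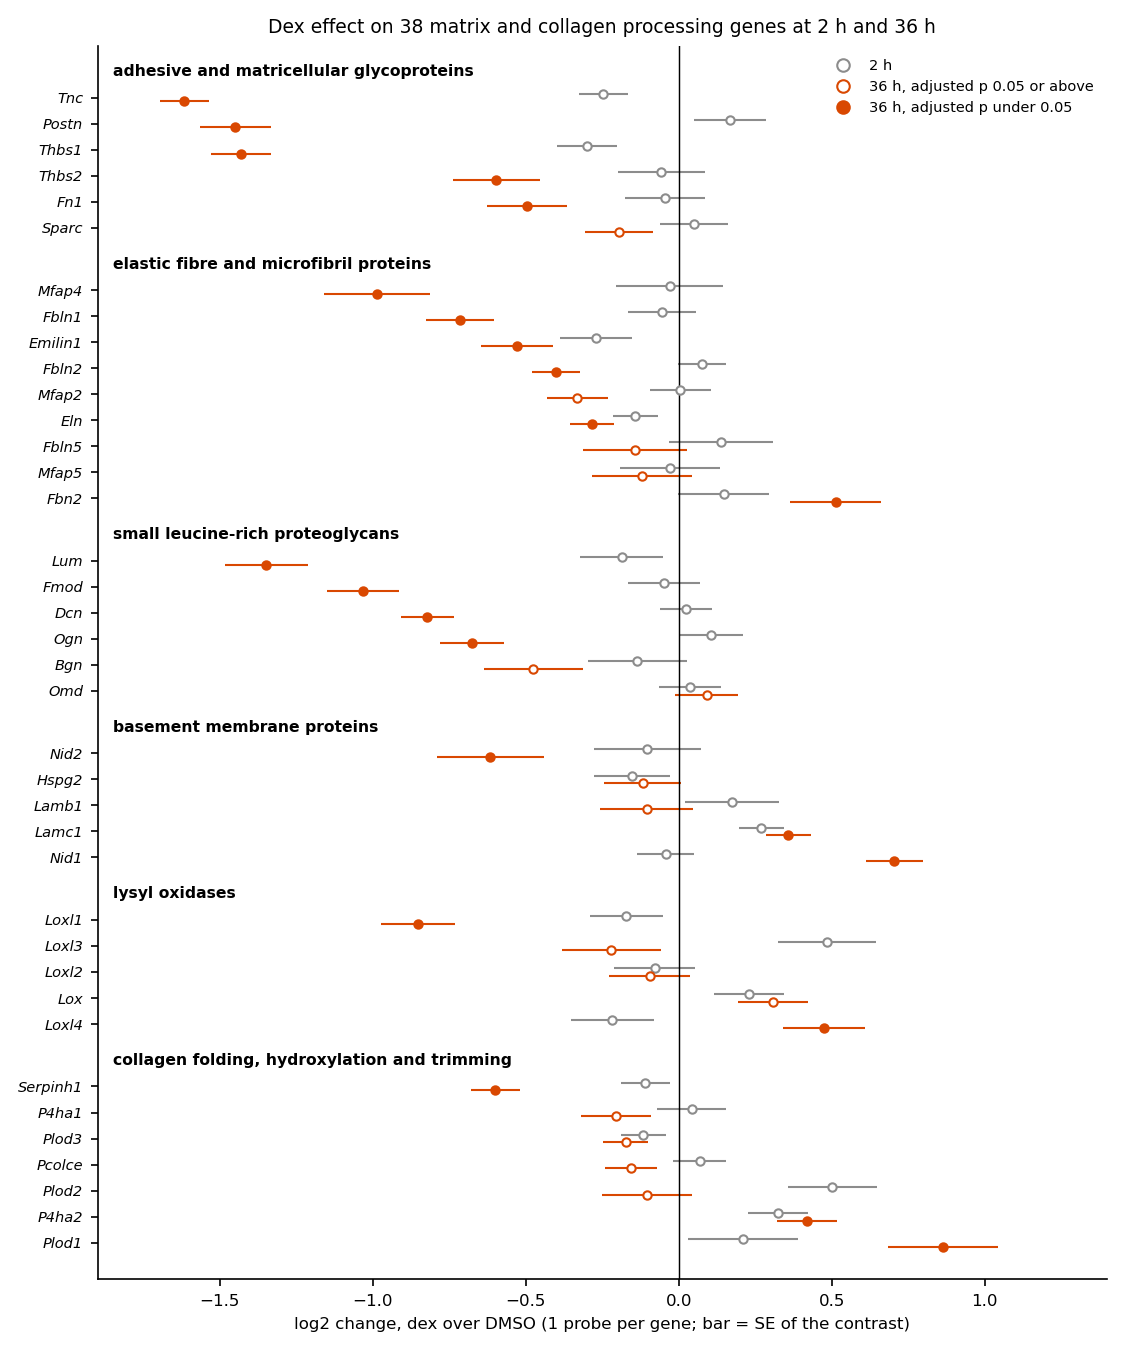
Log2 change of dex over DMSO for the quoted probe of each of the 38 genes, grouped by role, with the SE of the contrast as bars. Grey circles are 2 h and orange circles 36 h, filled where the adjusted p was under 0.05. The 2 h values lie between -0.30 and 0.50 with none filled, while at 36 h the matricellular genes and the leucine-rich proteoglycans reach -1.62 and -1.35.

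The adhesive and matricellular glycoproteins had the lowest median of the 6 role groups, -1.01. Of the 6 genes 5 fell, none rose, and Sparc, which encodes a collagen-binding matricellular protein, did not pass at -0.19 ± 0.11. Tnc encodes tenascin-C, a large hexameric glycoprotein of remodelling tissue. Its log2 ratios at 36 h were 0.51, 0.46, 0.47 and 0.49 on the 4 DMSO arrays and -1.14, -1.15, -1.30 and -0.94 on the 4 dex arrays. At 2 h they were -0.063, -0.018, -0.12 and 0.084 in DMSO and -0.23, -0.36, -0.26 and -0.25 in dex. On this probe the groups did not overlap at either time, and the gap at 36 h was many times the spread within the groups. On all the other Tnc probes the 2 h groups overlapped. Tnc was 3.07-fold lower in dex at 36 h, a change of -1.62 ± 0.080 (adjusted p = 3.42e-09). All 6 Tnc probes passed, at -1.64, -1.62 and -1.82 for 3 of them and at -0.89, -0.83 and -0.72 for the other 3. The sources used here do not say which transcripts these probes read.

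Postn encodes periostin, a secreted protein that binds collagen and fibronectin. Its DMSO arrays at 36 h read 0.44, 0.79, 0.98 and 0.75, and the dex arrays -0.50, -0.95, -0.69 and -0.70. Its 2 h arrays read 0.23, 0.11, 0.11 and -0.069 in DMSO and 0.33, 0.15, 0.30 and 0.27 in dex. The 36 h groups lay on opposite sides of the pool with no overlap, while the 2 h groups overlapped. Postn was 2.73-fold lower at 36 h (-1.45 ± 0.12, adjusted p = 7.88e-07), and its second probe gave -1.52 ± 0.14. Thbs1 encodes thrombospondin-1, a trimeric glycoprotein that activates latent TGF-beta. The 36 h values were 0.42, 0.35, 0.52 and 0.44 in DMSO and -1.18, -1.04, -1.09 and -0.69 in dex. The 2 h values were 0.15, 0.042, 0.29 and 0.061 in DMSO and -0.19, -0.10, -0.15 and -0.22 in dex. The arrays were apart at both times, and dex replicate 4 was the least low at 36 h. Thbs1 was 2.70-fold lower at 36 h (-1.43 ± 0.098, adjusted p = 1.17e-07), with -1.65 ± 0.12 on its second probe. The 2 h difference did not pass after adjustment (adjusted p = 0.190).

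Thbs2, the related thrombospondin-2, and Fn1, fibronectin, changed less. Thbs2 read 0.13, 0.22, 0.13 and 0.13 in DMSO and -0.067, -0.82, -0.22 and -0.68 in dex at 36 h. On the 2 h arrays it read 0.065, -0.26, -0.24 and -0.25 in DMSO and -0.39, -0.072, -0.22 and -0.24 in dex. The dex 36 h arrays split, with replicates 2 and 4 far below replicates 1 and 3, although all lay under DMSO. Thbs2 fell by 0.60 (SE 0.14, adjusted p = 0.0156), and the adjusted p was 0.0533 without DMSO 36 h replicate 2. With dex 36 h replicates 2 and 4 left out the change was -0.29 (adjusted p = 0.102), a setting added after the data were seen. Fn1, the adhesive protein that cells assemble into fibrils through integrins, was 0.20 ± 0.0505 in DMSO and -0.30 ± 0.279 in dex (SD, n = 4). Its change was -0.50 ± 0.13 (adjusted p = 0.0275), and 2 of its 4 probes passed. For the quoted Fn1 probe the adjusted p was 0.0616, 0.0702, 0.0752 and 0.0613 without DMSO 36 h replicates 1, 2, 3 and 4 in turn, and 0.0509 without dex 36 h replicate 4. With dex 36 h replicates 2 and 4 left out it was at -0.30 (adjusted p = 0.137).

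The promoters of Tnc and Postn are shown because both genes had large falls and hold the letters TATAAA, in capitals, on the sense strand before a start site. They come from RefSeq on build GRCm38.p6, 250 bases up to the start, Tnc at chr4:64047016-64047265 on the minus strand and Postn, for its second listed start, at chr3:54360857-54361106 on the plus strand.
Tnc: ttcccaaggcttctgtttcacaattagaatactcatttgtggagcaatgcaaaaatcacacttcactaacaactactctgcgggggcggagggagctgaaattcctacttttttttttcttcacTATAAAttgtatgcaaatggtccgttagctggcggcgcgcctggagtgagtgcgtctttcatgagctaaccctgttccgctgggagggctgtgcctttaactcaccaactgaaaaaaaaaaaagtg
Postn: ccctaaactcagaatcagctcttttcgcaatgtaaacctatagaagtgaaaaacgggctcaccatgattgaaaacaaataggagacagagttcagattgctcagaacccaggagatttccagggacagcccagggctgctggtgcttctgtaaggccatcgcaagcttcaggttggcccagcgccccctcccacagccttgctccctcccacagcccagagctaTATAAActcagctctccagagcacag
The letters begin 126 bases before the Tnc start shown, 205 bases before its other listed start, and 26 bases before the Postn start. RefSeq promoters were matched for 23 of the 38 genes, 28 promoters in all, and 300 bases of each (250 before and 50 after the start) were searched. TATAAA, read on the sense strand, was in 5 of 28 of these promoters, or 17.9 percent, and in 8.32 percent of all 32851. By gene it was in 4 of 23, beside 2641 of all 27025 genes with a promoter. Both Tnc windows hold the same site and count separately among the promoters, and the match of P4ha1 lies after the start. AGAACA, the element of glucocorticoid receptor sites, read on both strands, was in 17.9 percent against 19 percent of all. GGAATG, bound by TEAD factors, was in 10.7 percent against 14.7, and TGANTCA, the AP-1 element, in 0 of 28 promoters against 7.81 percent, both read on both strands. No matches of different motifs overlapped in these promoters. These are matches of letters and say nothing of binding.

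**Figure D2:**
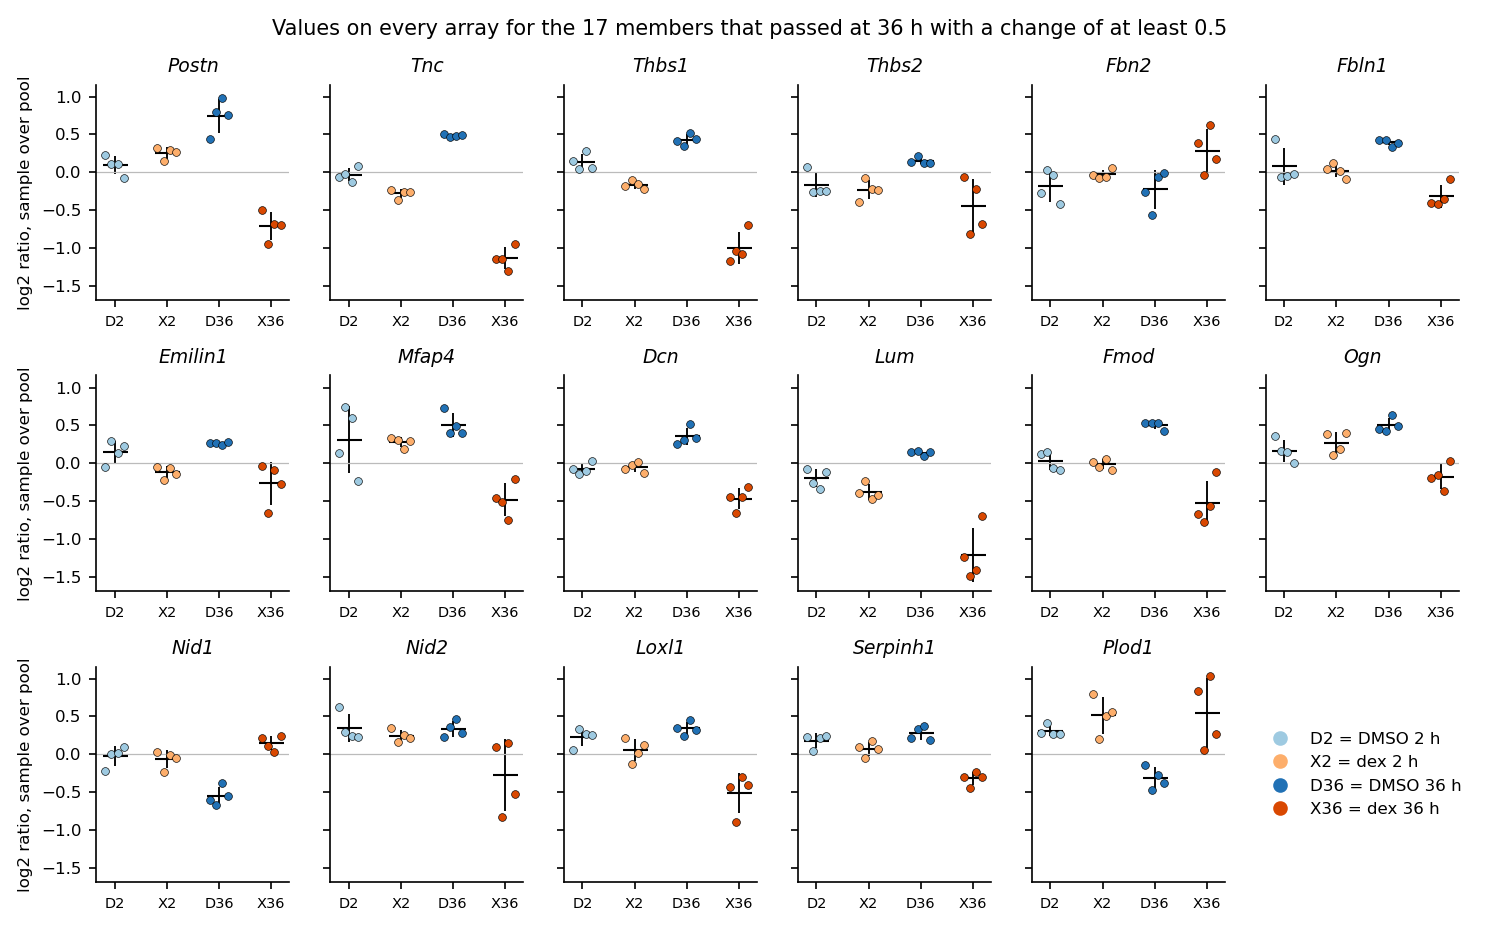
Log2 ratio of sample over pool on each of the 16 arrays for the quoted probe of 17 genes, those that passed at 36 h with a change of at least 0.5. Points are arrays, horizontal lines group means and vertical lines SD (n = 4). In Tnc the dex 36 h arrays lie between -1.30 and -0.94 and the DMSO 36 h arrays between 0.46 and 0.51, whereas in Plod1 and Nid2 the dex 36 h arrays spread widely.

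Among the proteins of elastic fibres and microfibrils 5 of 9 measured genes fell, 1 rose and 3 did not pass, with a median of -0.33. Mfap4, a microfibril-associated glycoprotein that binds elastin and collagen, had the largest fall. It read 0.72, 0.41, 0.50 and 0.40 in DMSO and -0.45, -0.52, -0.74 and -0.21 in dex at 36 h. At 2 h it read 0.14, 0.74, 0.60 and -0.23 in DMSO and 0.33, 0.31, 0.19 and 0.29 in dex. The 36 h groups were apart, while the DMSO 2 h arrays covered a range wider than any 2 h difference. Mfap4 was 1.98-fold lower at 36 h (-0.99 ± 0.17, adjusted p = 0.00180). Fbln1 encodes fibulin-1, a calcium-binding glycoprotein of elastic fibres and basement membranes. Its 36 h arrays read 0.42, 0.43, 0.34 and 0.39 in DMSO and -0.41, -0.42, -0.35 and -0.090 in dex. Its 2 h arrays read 0.44, -0.064, -0.045 and -0.026 in DMSO and 0.044, 0.13, 0.011 and -0.091 in dex. The groups were apart at 36 h only. Fbln1 was 1.64-fold lower at 36 h (-0.71 ± 0.11, adjusted p = 6.28e-04), and 3 of its 4 probes passed, with the fourth at 0.0010.

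Emilin1 encodes a glycoprotein at the interface of elastin and microfibrils. At 36 h it read 0.27, 0.27, 0.24 and 0.28 in DMSO and -0.033, -0.66, -0.090 and -0.27 in dex. The earlier arrays, at 2 h, read -0.045, 0.30, 0.13 and 0.23 in DMSO and -0.042, -0.22, -0.067 and -0.15 in dex. The DMSO 36 h arrays agreed closely, and the dex arrays spread below them with replicate 2 lowest. Emilin1 fell by 0.53 (SE 0.12, adjusted p = 0.0101). Fbln2, fibulin-2, fell on its quoted probe by 0.40 (SE 0.078, adjusted p = 0.00383), but its other 2 probes gave -0.048 and 0.0012. With the probes averaged, Fbln2 changed by -0.15 (adjusted p = 0.333), which ends the call. Eln, elastin itself, went from 0.19 ± 0.085 in DMSO to -0.10 ± 0.0708 in dex (SD, n = 4), a change of -0.28 ± 0.072 (adjusted p = 0.0235). The Eln call was lost without DMSO 36 h replicates 1, 2 or 4, with adjusted p of 0.0910, 0.0554 and 0.0686, or without dex 36 h replicates 1 or 3, with 0.0880 and 0.0615. With both of these dex arrays left out Eln was at -0.24 (adjusted p = 0.250).

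Fbn2 encodes fibrillin-2, the microfibril protein most associated with development, and was the only gene of this role that rose. Its 36 h arrays read -0.26, -0.57, -0.066 and -0.0044 in DMSO and 0.38, -0.038, 0.63 and 0.17 in dex. Its 2 h arrays read -0.28, 0.037, -0.041 and -0.42 in DMSO and -0.034, -0.071, -0.067 and 0.058 in dex. The groups overlapped at 36 h, where dex replicate 2 lay within the DMSO range. The change was 0.51 ± 0.15 (adjusted p = 0.0442), and leaving out any of 10 of the 16 arrays in turn gave an adjusted p between 0.0535 and 0.163. Those arrays were DMSO 2 h replicate 3, dex 2 h replicates 1, 3 and 4, DMSO 36 h replicates 1, 2 and 3, and dex 36 h replicates 1, 3 and 4. With dex 36 h replicates 1 and 3 both left out Fbn2 was at 0.29 (adjusted p = 0.628). Mfap2, a microfibril component, came close, with changes of -0.33 ± 0.10 (adjusted p = 0.0524) and -0.36 ± 0.11 on its 2 probes and dex arrays entirely below DMSO on both. Fbln5, which carries elastin onto microfibrils, was at -0.14 ± 0.17, and Mfap5, another microfibril glycoprotein, at -0.12 ± 0.16.

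Small leucine-rich proteoglycans, which coat collagen fibrils, fell in 4 of 6 cases with a median of -0.75, and none rose. Lum encodes lumican, which binds fibrils of collagen I and regulates their diameter. At 36 h it read 0.15, 0.17, 0.10 and 0.15 in DMSO and -1.24, -1.48, -1.41 and -0.69 in dex. At 2 h it read -0.077, -0.25, -0.34 and -0.11 in DMSO and -0.40, -0.23, -0.48 and -0.42 in dex. The 36 h groups were far apart, with dex replicate 4 nearer to DMSO than the other dex arrays. Lum was 2.55-fold lower in dex at 36 h (-1.35 ± 0.14, adjusted p = 8.87e-06). Fmod encodes fibromodulin, a relative of lumican on the same fibrils. Its 36 h arrays read 0.53, 0.53, 0.53 and 0.43 in DMSO and -0.66, -0.78, -0.56 and -0.11 in dex. Its 2 h arrays read 0.12, 0.16, -0.059 and -0.085 in DMSO and 0.015, -0.043, 0.060 and -0.092 in dex. Dex replicate 4 was again the least low, and the 2 h groups overlapped. Fmod was 2.04-fold lower at 36 h (-1.03 ± 0.12, adjusted p = 3.36e-05).

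Dcn encodes decorin, the proteoglycan that decorates fibrils and binds TGF-beta. Its 36 h values were 0.26, 0.31, 0.52 and 0.34 in DMSO and -0.44, -0.66, -0.45 and -0.31 in dex. Its 2 h values were -0.082, -0.14, -0.10 and 0.030 in DMSO and -0.075, -0.017, 0.013 and -0.13 in dex. The 2 h groups lay on top of each other and the 36 h groups were apart. Dcn was 1.77-fold lower at 36 h (-0.82 ± 0.085, adjusted p = 1.26e-05), and its other probes gave -0.77 and -0.72. Ogn encodes osteoglycin, also called mimecan. Its 36 h values were 0.45, 0.43, 0.64 and 0.49 in DMSO and -0.20, -0.16, -0.37 and 0.027 in dex. Its 2 h values were 0.36, 0.16, 0.15 and 0.0062 in DMSO and 0.39, 0.10, 0.19 and 0.40 in dex. The groups were apart at 36 h and overlapped at 2 h. Ogn was 1.60-fold lower at 36 h (-0.68 ± 0.10, adjusted p = 5.79e-04), with -0.40 ± 0.12 on its second probe. Bgn, biglycan, the closest relative of decorin, was at -0.48 ± 0.16 and did not pass (adjusted p = 0.0865). Its dex 36 h arrays read -0.40, 0.19, -0.61 and 0.096, so that replicates 1 and 3 lay low, replicate 2 lay within the DMSO range and replicate 4 at its lower edge. Omd, osteomodulin, was at 0.091 ± 0.10.

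Basement membrane genes did not move together, as 2 of 5 rose, 1 fell and 2 did not pass. Nid1 encodes nidogen-1, which links laminin to collagen IV. At 36 h it read -0.61, -0.67, -0.38 and -0.55 in DMSO and 0.21, 0.11, 0.031 and 0.24 in dex. At 2 h it read -0.21, 0.010, 0.023 and 0.095 in DMSO and 0.024, -0.24, -0.0035 and -0.045 in dex. Every dex array was above every DMSO array at 36 h, and the groups overlapped at 2 h. Nid1 was 1.63-fold higher in dex at 36 h (0.71 ± 0.093, adjusted p = 1.47e-04). Lamc1, the gamma-1 chain shared by most laminins, rose by 0.36 ± 0.074 (adjusted p = 0.00587), from -0.15 ± 0.0925 to 0.21 ± 0.077 (SD, n = 4), and its dex arrays lay above DMSO at both times. The Nid1 promoter (RefSeq, GRCm38.p6, chr13:13437352-13437601, plus strand) is shown as that of the rising gene with the smallest adjusted p, with its GGAATG match in capitals, beginning 165 bases before the start.
Nid1: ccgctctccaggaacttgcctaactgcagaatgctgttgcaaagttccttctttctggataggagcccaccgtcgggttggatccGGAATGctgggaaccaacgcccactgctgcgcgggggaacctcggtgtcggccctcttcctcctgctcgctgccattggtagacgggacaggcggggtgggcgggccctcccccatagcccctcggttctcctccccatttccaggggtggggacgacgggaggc

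Nid2 encodes nidogen-2, which shares its binding partners with nidogen-1, and its value was of the opposite sign. At 36 h it read 0.23, 0.37, 0.47 and 0.29 in DMSO and 0.092, -0.82, 0.15 and -0.53 in dex. Values at 2 h were 0.62, 0.29, 0.24 and 0.23 in DMSO and 0.35, 0.16, 0.25 and 0.21 in dex. Dex 36 h replicates 2 and 4 carried the fall, while replicates 1 and 3 lay just under DMSO. Nid2 fell by 0.62 (SE 0.17, adjusted p = 0.0398), and leaving out any of 9 of the 16 arrays in turn gave an adjusted p between 0.0510 and 0.105. Those were DMSO 2 h replicate 3, dex 2 h replicates 3 and 4, all 4 DMSO 36 h replicates, and dex 36 h replicates 2 and 4. With both of the latter left out the change was -0.22 (adjusted p = 0.260). Hspg2, the heparan sulfate proteoglycan perlecan, was at -0.12 ± 0.12 and Lamb1, the laminin beta-1 chain, at -0.11 ± 0.15.

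The 5 lysyl oxidases, copper enzymes that start the crosslinking of collagen and elastin, split as well, with 1 fall, 1 rise and 3 genes that did not pass. Loxl1, the member most tied to elastic fibres, read 0.35, 0.25, 0.46 and 0.33 in DMSO and -0.43, -0.90, -0.30 and -0.40 in dex at 36 h. Its 2 h arrays read 0.053, 0.34, 0.27 and 0.25 in DMSO and 0.22, -0.12, 0.012 and 0.12 in dex. The groups were apart at 36 h and overlapped at 2 h. Loxl1 was 1.81-fold lower at 36 h (-0.85 ± 0.12, adjusted p = 2.69e-04), and its second probe passed at -0.38 ± 0.082. Loxl4 went from -0.18 ± 0.142 to 0.29 ± 0.226 (SD, n = 4), a rise of 0.48 ± 0.14 (adjusted p = 0.0400). Leaving out any of 8 of the 16 arrays in turn gave Loxl4 an adjusted p between 0.0507 and 0.147. Those were dex 2 h replicates 3 and 4, all 4 DMSO 36 h replicates, and dex 36 h replicates 1 and 3. With both of these dex arrays left out Loxl4 was at 0.29 (adjusted p = 0.579). Lox, the founding enzyme of the family, was at 0.31 ± 0.12 (adjusted p = 0.119), Loxl2 at -0.095 ± 0.13 and Loxl3 at -0.22 ± 0.16. The second Loxl2 probe had isolated readings of -2.63 in DMSO 36 h replicate 1 and -3.08 in dex 36 h replicate 3, with its other 36 h arrays between -0.072 and 0.32.

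Of the 7 genes for folding, hydroxylation and trimming of collagen, 2 rose, 1 fell and 4 did not pass. Serpinh1 encodes HSP47, the chaperone specific for procollagen. At 36 h it read 0.22, 0.33, 0.38 and 0.19 in DMSO and -0.30, -0.45, -0.24 and -0.29 in dex. The 2 h arrays gave 0.22, 0.040, 0.22 and 0.24 in DMSO and 0.093, -0.047, 0.17 and 0.067 in dex. The spread within each 36 h group was small beside the gap between them. Serpinh1 was 1.52-fold lower at 36 h (-0.60 ± 0.080, adjusted p = 1.60e-04). Plod1 encodes lysyl hydroxylase 1, which modifies lysines in the collagen helix. At 36 h the arrays gave -0.14, -0.48, -0.27 and -0.37 in DMSO and 0.84, 0.062, 1.03 and 0.27 in dex. At 2 h the arrays gave 0.29, 0.41, 0.27 and 0.26 in DMSO and 0.80, 0.21, 0.51 and 0.55 in dex. All dex 36 h arrays lay above DMSO, but replicates 1 and 3 stood well above replicates 2 and 4. Plod1 was 1.82-fold higher at 36 h (0.86 ± 0.18, adjusted p = 0.00644). With dex 36 h replicates 1 and 3 left out the rise was 0.48 (adjusted p = 0.118).

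P4ha2, a catalytic subunit of prolyl 4-hydroxylase, rose by 0.42 ± 0.099 (adjusted p = 0.0143), and by 0.38 without DMSO 36 h replicate 1, which gave an adjusted p of 0.0583. With dex 36 h replicates 1 and 3 left out it was at 0.37 (adjusted p = 0.185). Its sister subunit P4ha1 was at -0.21 ± 0.11, with all dex arrays below DMSO but an adjusted p of 0.330. The remaining lysyl hydroxylases were at -0.10 ± 0.15 (Plod2) and -0.17 ± 0.075 (Plod3), and Pcolce, which enhances the trimming of procollagen, at -0.16 ± 0.085.

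Where several probes measured a gene, they mostly gave the same call. Of the 10 called genes with several probes, all probes passed for 7 and some for 3, which were Fn1, Fbln1 and Fbln2. Over all 62 probes, all dex arrays lay below all DMSO arrays at 36 h for 36 and above for 5, beside 13.8 and 13 percent of all probes of the array. Probes of a gene share their RNA and are not replicates of the treatment.

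**Figure D3:**
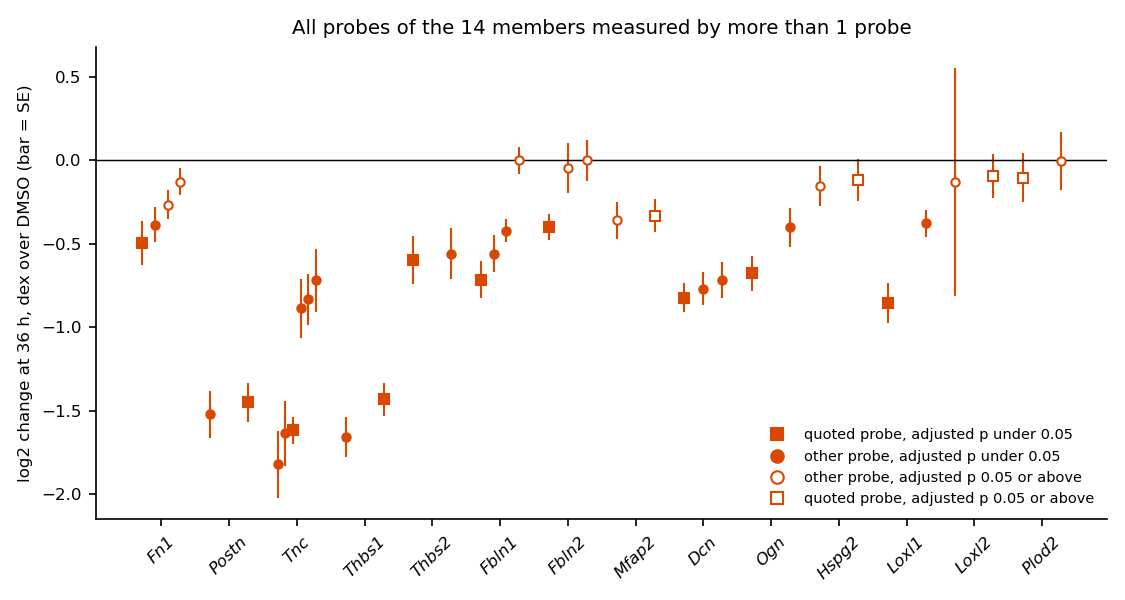
Log2 change at 36 h, dex over DMSO, for every probe of the 14 genes measured by more than 1 probe, with the SE of the contrast as bars. Squares are the quoted probes and circles the others, filled where the adjusted p was under 0.05. The 6 Tnc probes lie between -1.82 and -0.72, all filled, and the wide bar belongs to the second Loxl2 probe.

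The test of the difference between the dex effects at 36 h and at 2 h asked which genes responded differently at the later time. By this test 11 genes were more negative at 36 h and 1, Nid1, more positive, beside 1.36 and 2.12 percent of all genes. The 11 were Postn, Tnc, Thbs1, Fbln1, Fbln2, Dcn, Lum, Fmod, Ogn, Loxl1 and Serpinh1, each of which also fell at 36 h. Postn had the largest difference at -1.62 ± 0.16 (adjusted p = 5.39e-05), and its other probe gave -2.03 ± 0.20. Next came Tnc at -1.37 ± 0.11, Lum at -1.16 ± 0.19 and Thbs1 at -1.13 ± 0.14. Nid1 differed by 0.75 ± 0.13 (adjusted p = 0.00532). For 4 of the 11 the quoted probe lost its call when some single arrays were left out, in 12 of 16 omissions for Fbln1 (adjusted p 0.0622 to 0.0936), 7 for Fbln2 (0.0506 to 0.0808), 12 for Loxl1 (0.0520 to 0.109) and 9 for Serpinh1 (0.0505 to 0.0787). Without DMSO 36 h replicate 2 all 4 were lost together and 7 genes were left. The differences of Postn, Tnc, Thbs1, Dcn, Lum, Fmod, Ogn and Nid1 passed with each array left out in turn.

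The time course in each arm was then set beside the dex effect. The 36 h DMSO and dex groups enter both kinds of comparison, so the values below describe the same arrays from another side. In vehicle alone 3 genes rose between 2 and 36 h, Postn by 0.65 ± 0.12, Tnc by 0.51 ± 0.080 and Dcn by 0.43 ± 0.085, beside 0.27 percent of all genes. Nid1 fell in vehicle by 0.53 (SE 0.093), beside 0.993 percent of all genes. The Postn call ended without DMSO 36 h replicates 2, 3 or 4 in turn (adjusted p 0.0528 to 0.0543), the Nid1 call without DMSO 36 h replicates 1 or 2 (0.0502 and 0.0526), and the Dcn call in 6 of 16 omissions, which were DMSO 2 h replicates 2 and 3 and all 4 DMSO 36 h replicates (0.0502 to 0.105). Tnc passed on 1 of its 6 probes, and its call ended with the probes averaged (0.42, adjusted p = 0.161) and under quantile normalization (adjusted p = 0.0558). In dex 12 genes fell with time and none of 38 rose in limma, beside 1.39 percent of all genes that fell and 1.03 percent that rose. At an unadjusted p under 0.05, 2 were higher with time, Loxl4 and Nid1, beside 1485 of all 19640 genes. The 12 were Fn1, Postn, Tnc, Thbs1, Fbln1, Mfap4, Dcn, Lum, Fmod, Ogn, Loxl1 and Serpinh1, of which Fn1 and Fbln1 passed through probes other than the quoted ones.

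Postn fell by 0.97 (SE 0.12) with time in dex, Tnc by 0.86 (SE 0.080), Thbs1 by 0.83 (SE 0.098) and Lum by 0.82 (SE 0.14), and these 4 passed with each array left out in turn. The time calls in dex were less firm for Fmod and Ogn, each lost in 12 of 16 single omissions, and for Mfap4, lost in 11, with adjusted p up to 0.150, 0.137 and 0.128. They were also lost in 5 omissions for Dcn and in 4 each for Loxl1 and Serpinh1, with adjusted p up to 0.0851, 0.0852 and 0.0876. With dex 36 h replicates 1 and 3 left out 4 genes fell with time in dex. Lum was not among them, at -0.71 (adjusted p = 0.105). With the groups compared alone Lum was at -0.82 and also lost its call (adjusted p = 0.0586).

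Across the 17 genes that fell at 36 h, the quoted value had moved upwards with time in DMSO for 15 and downwards in dex for all 17. The median change with time was 0.30 in DMSO and -0.45 in dex. For 5 of the 6 genes that rose at 36 h, the value moved down with time in DMSO and up in dex. Among the quoted probes of the 17, 3 vehicle changes and 10 changes in dex passed, and among those of the 6 the vehicle change of Nid1 passed. For the quoted Dcn probe the change with time was 0.43 in DMSO and -0.41 in dex. Its other 2 probes gave 0.25 and -0.43, and 0.16 and -0.61, in DMSO and dex, and neither passed in DMSO. With the probes averaged the DMSO change of Dcn was 0.28 (adjusted p = 0.195). For Nid1 it was -0.53 in DMSO and 0.22 in dex, and the latter did not pass (adjusted p = 0.323).

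**Figure D4:**
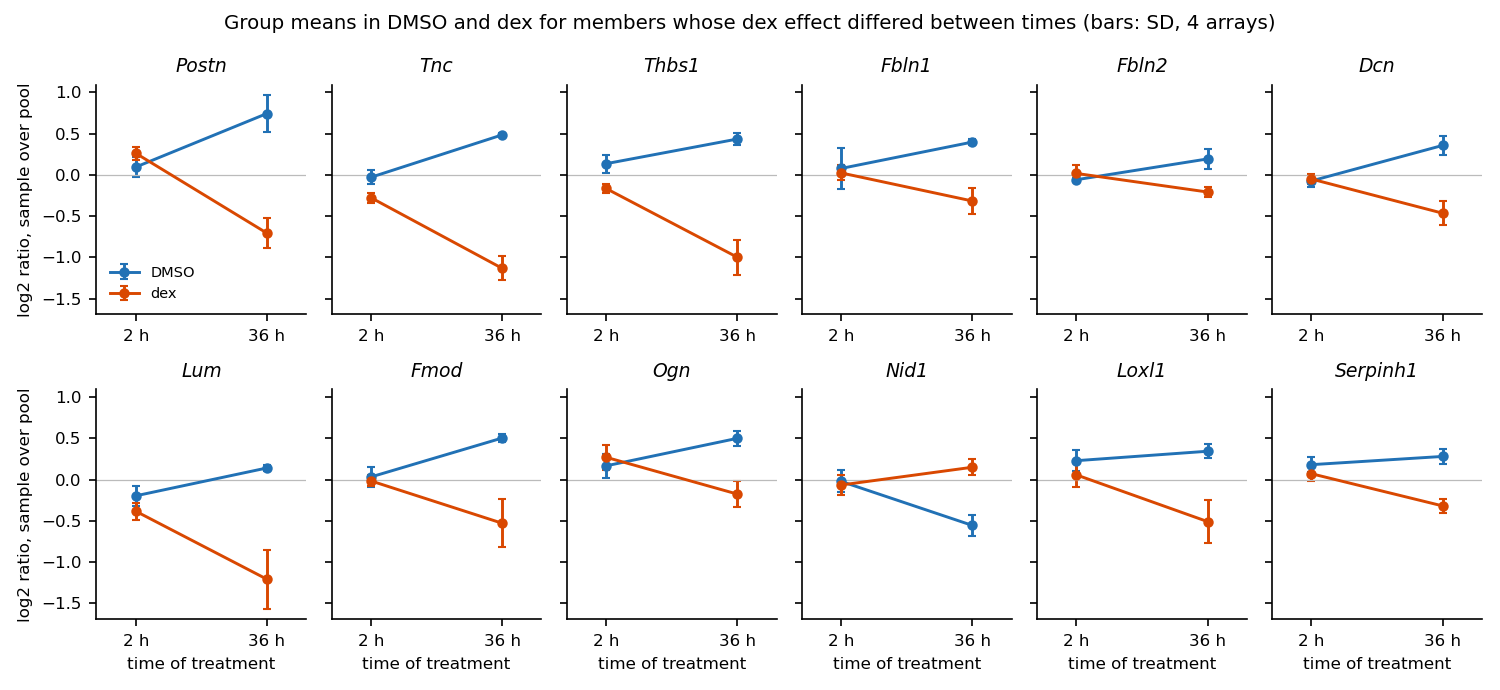
Group means of the log2 ratio over the pool at 2 h and 36 h in DMSO (blue) and dex (orange) for the 12 genes whose dex effect differed between the times, with SD bars (n = 4). In 11 panels the lines open with DMSO above dex at 36 h, and Nid1 is the panel in which they open the other way.

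Beside these genes stood a list of 80 other matrix and matrix-processing genes, of which 73 were measured. At 36 h 5 of them rose, 10 fell and 1, Ltbp1, had probes passing in both directions, with a median of -0.069. Of all genes 6.75 percent rose and 4.83 percent fell, so the share of this list that rose was close to that of all genes. The falls were led by Tgfbi, a secreted adhesion protein induced by TGF-beta (-1.04 ± 0.14), Thbs3, another thrombospondin (-0.77 ± 0.089), and P4ha3, another prolyl hydroxylase subunit (-0.72 ± 0.13 on its quoted probe, with -0.44 on its second probe, which did not pass). The second Tgfbi probe, at -0.54, did not pass either (adjusted p = 0.0861). The rises were led by Ccn1, a matricellular protein also known as Cyr61 (1.29 ± 0.093), Lama2, the laminin alpha-2 chain (1.06 ± 0.14), and Npnt, nephronectin (0.79 ± 0.13). At 2 h 3 genes of the list rose and 2 fell, beside 1.97 and 1.21 percent of all genes.

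Of 40 collagen chain genes 38 were measured, and at 36 h 6 rose and 9 fell with a median of -0.16. Of all genes 6.75 percent rose and 4.83 percent fell. The largest falls were those of Col12a1, a fibril-associated chain (-1.85 ± 0.10), Col23a1, a transmembrane collagen (-1.35 ± 0.16), and Col27a1, a fibrillar chain (-0.81 ± 0.15). Each has a second probe that did not pass, at -0.14 for Col12a1 (adjusted p = 0.516), -0.36 for Col23a1 (adjusted p = 0.109) and -0.51 for Col27a1 (adjusted p = 0.137). Col1a1 and Col1a2, which make collagen I, the main client of HSP47, were at -0.72 ± 0.10 and -0.58 ± 0.12, and both passed. The largest rises were Col4a1 at 1.60 ± 0.090, Col6a2 at 0.93 ± 0.093 and Col4a2 at 0.72 ± 0.093. Col4a1 and Col4a2 make the collagen IV to which nidogens bind. Of other basement membrane genes Lama4, the laminin alpha-4 chain, was at -0.58 (adjusted p = 0.00217) and Col15a1, a basement membrane zone collagen, at -0.67 (adjusted p = 0.0337), so both fell. No test compared these lists with each other.

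Markers of cell state and of other cell types were read on the same arrays, where 6.75 percent of all genes rose at 36 h and 4.83 percent fell. Of 9 mature adipocyte markers measured 2 rose at 36 h, Fabp4, a fatty acid binding protein, by 2.59 ± 0.31 and Pnpla2, a triglyceride lipase, by 0.55 ± 0.11, and none fell. Other Pnpla2 probes gave 1.17, 0.63 and -0.070, of which the last did not pass. The other 7 markers did not pass, and the list's median was 0.19. The mean of the adipocyte list over its genes was -0.357 to -0.256 on the DMSO 36 h arrays and -0.0025 to 0.230 on the dex 36 h arrays. Without Fabp4 it was -0.164 to -0.0812 and 0.0057 to 0.0510. Of 9 fibroblast and preadipocyte markers 4 fell, Dlk1, Pdgfrb, Col1a1 and Col1a2, none rose and 5 did not pass. Col1a1 and Col1a2 are also counted among the collagen chains above, so this list is not separate from the matrix genes. Its mean, which includes them, was 0.146 to 0.488 in DMSO and -0.150 to -0.026 in dex. Endothelial markers had 0 of 10 calls at 36 h in limma, and 0 at an unadjusted p under 0.05. At that unadjusted p 2801 of all 19640 genes were higher and 2384 lower. Among 10 macrophage markers Lyz2, a lysozyme, fell, and among 10 epithelial markers Krt8, a keratin, rose by 1.15 ± 0.076. Lyz2 passed on its quoted probe at -0.56, and its other probes, at -0.25 and -0.23, did not pass (adjusted p = 0.103 and 0.153). The list mean for macrophage markers was -0.0040 to 0.025 in DMSO and -0.131 to 0.0044 in dex, and for epithelial markers -0.106 to -0.070 and 0.033 to 0.049. The epithelial mean includes the large rise of Krt8, and it was not computed without that gene. The median change of the epithelial list was 0.045, with 6 of 10 quoted values above 0 and 4 below. Ratios to a pool cannot show whether a marker was absent, and the part of cell state in the matrix changes was not tested.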

How the data were processed

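Per the labels, each sample was labelled with Cy5 and hybridised with a pool in Cy3. The deposited values are log2 ratios as read here, with 1 value for each probe and array. The base, the background correction and the normalization are not stated in the sources used here, and another base would scale all stated changes by a constant. Per the design text the authors fitted limma models and took log-odds above even as their criterion. Of the values 131 were missing, none in the probes reported. By the platform annotation 29456 probes named 1 gene, 760 named more and 8251 had no gene.

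In R 4.3.3 with limma 3.58.1, lmFit and eBayes fitted 4 group means over 16 arrays without covariates (residual degrees of freedom 12, prior 3.19), with Benjamini-Hochberg adjustment over 38467 probes and a threshold of 0.05. The fit was checked on simulated data. Values on every array are given for genes whose quoted probe passed with an absolute change of at least 0.5. Alternatives were array weights, a robust variance model, scale and quantile normalization, the log-odds criterion, averaged probes, probes naming 1 gene, the groups compared alone, the replicate number as a block, and each array left out. Leaving out pairs of dex 36 h arrays was added after the data were seen. The genes, gene lists and marker lists were chosen with earlier results of these data known. Signal over background is unknown, since no intensities were used, and the number of arrays limits the precision. Promoters came from a RefSeq table of build GRCm38.p6, and no probe position was used.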

Additional observations from a re-analysis of the deposited data

Results flagged for a closer look

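For 12 genes the dex effect at 36 h differed from that at 2 h in the limma test of the difference, with 4 arrays in each of the 4 groups. The difference was -1.62 for Postn, -1.37 for Tnc, -1.13 for Thbs1, -1.16 for Lum, -0.98 for Fmod, -0.84 for Dcn, -0.78 for Ogn, -0.68 for Loxl1, -0.66 for Fbln1, -0.49 for Serpinh1, -0.48 for Fbln2 and 0.75 for Nid1 on the log2 scale. Adjusted p-values ran from 8.07e-06 for Tnc to 0.0471 for Loxl1.

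In 7 of 68 gene and group combinations a single array stood apart from the other 3 by Dixon's criterion, which flags about 1 in 20 groups by chance. In DMSO 2 h, replicate 1 read 0.065 for Thbs2, 0.444 for Fbln1 and 0.621 for Nid2, each above the rest, and replicate 2 read 0.0404 for Serpinh1, below the rest, and 0.409 for Plod1, above the rest. In DMSO 36 h, replicate 2 read 0.218 for Thbs2, above the rest, and replicate 4 read 0.428 for Fmod, below the rest. None of the 7 lay in a dex group.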

How the results depend on the processing

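Called values of single genes (49 over the 4 comparisons with calls) were followed over 1311 combinations of value and setting. The direction was kept in all of them, 1107 also kept the call and 204 lost it, and 23 values never lost it. At 36 h 13 of the 23 calls were never lost, those of Postn, Tnc, Thbs1, Fbln1, Mfap4, Dcn, Lum, Fmod, Ogn, Nid1, Lamc1, Loxl1 and Serpinh1. With each array left out in turn, the count of genes that fell at 36 h ran from 13 to 18 and of those that rose from 3 to 6, lowest without DMSO 36 h replicate 2 and replicate 1. At 36 h 3 genes rose under the log-odds criterion and 2 with dex 36 h replicates 1 and 3 left out. The count that fell was 12 under the log-odds criterion and 23 with array weights. At 2 h 1 gene, P4ha2, rose with dex 36 h replicates 2 and 4 left out, and 0 to 1 rose with single arrays left out, P4ha2 again without dex 36 h replicate 4. For the difference between times, 2 genes rose with array weights, scale or quantile normalization, 3 with dex 36 h replicates 2 and 4 left out and 1 to 2 with single arrays left out, while 7 to 12 fell in the latter. In DMSO over time 1 gene rose with the groups compared alone or with averaged probes, 5 with array weights, quantile normalization or dex 36 h replicates 2 and 4 left out, 7 with scale normalization and 2 to 4 with single arrays left out. In DMSO 2 fell with quantile normalization or either pair of dex 36 h arrays left out, and 0 to 1 with single arrays left out. In dex over time 1 gene, Loxl4, rose with array weights, scale or quantile normalization or dex 36 h replicates 2 and 4 left out, and 0 to 1 with single arrays left out. In dex 7 fell with the groups compared alone, 4 with dex 36 h replicates 1 and 3 left out, and 7 to 13 with single arrays left out. Where arrays were left out, fewer samples were fitted, and for the other settings the cause was not tested.

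Between samples with the same replicate number the correlation of deviations ran from -0.103 to 0.344 over 24 pairs and exceeded 0.1 in 5. In 8 of the 24 comparisons the same number was the best match. Within a time, DMSO and dex gave 0.190 and 0.255 for replicates 2 and 4 at 2 h, and 0.344 and 0.224 for replicates 2 and 3 at 36 h. The other pairs within a time lay between -0.103 and 0.041. Whether equal numbers mark paired samples is not stated in the labels. With the replicate block 4 genes rose and 18 fell at 36 h, 1 rose and 9 fell in the difference, 3 rose and 1 fell in DMSO over time, 0 rose and 9 fell in dex over time, and none passed at 2 h.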

Other observations

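A further probe was annotated to both Postn and A630052E07Rik and so was not counted with the genes above. Its mean log2 ratio was 0.60 ± 0.105 in DMSO 36 h and -1.86 ± 0.259 in dex 36 h (SD, n = 4), a change of -2.46 ± 0.12 (SE), or 5.51-fold lower in dex. At 2 h it was -0.16 ± 0.0257 in DMSO and 0.28 ± 0.176 in dex, a change of 0.43 ± 0.12 that did not pass in limma (adjusted p = 0.0864). All 4 dex arrays lay above all DMSO arrays at 2 h and below them at 36 h, and the same order held on the Postn probe that was not quoted (0.51 at 2 h, -1.52 at 36 h).

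The spread between dex 36 h arrays was wider for the matrix genes than for genes at large. Their median SD was 0.175, beside 0.120 over all genes, while in DMSO 36 h it was 0.088 beside 0.071, in dex 2 h 0.106 beside 0.137 and in DMSO 2 h 0.135 beside 0.233. This was not tested. Replicates 1 and 3 both lay above replicates 2 and 4 on the quoted probes of 11 genes, Fn1, Postn, Thbs2, Fbn2, Fbln2, Emilin1, Nid2, Lamb1, Loxl4, Plod1 and Plod2. They both lay below on those of 11 others, Sparc, Thbs1, Eln, Fbln5, Mfap5, Bgn, Ogn, Lamc1, Loxl2, Loxl3 and P4ha1, and the pairs overlapped for 16. The same split was not counted over all genes.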
